A study of Arabidopsis thaliana with 12 samples.

Results

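CYP718 is a cytochrome P450 gene of Arabidopsis thaliana, locus AT2G42850 on chromosome 2, read by 1 probe set of an Affymetrix array. It was found through the platform annotation as the probe set naming CYP718 alone, and it is 1 of 13286 genes named singly on the array. Its signal on 12 arrays is described here. CYP718 was selected on its measured signals in these same samples, by its large difference between eto1-4 and Col-0 and its levels over the 6 groups, so its own levels and differences are descriptions without a test.

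Cytochrome P450 enzymes carry a heme group held by a cysteine, and they insert an oxygen atom into small molecules with electrons passed on by a P450 reductase. Plants hold large P450 families that make and break down hormones, sterols, phenylpropanoids, glucosinolates and terpenoids. CYP718 belongs by sequence to the CYP85 clan, which also holds the P450 enzymes of brassinosteroid synthesis, gibberellin synthesis and abscisic acid breakdown. Which substrate the CYP718 enzyme acts on is not stated in the labels or files.

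The study put 3 antagonists of the ethylene response and the inhibitor AVG on a mutant that makes too much ethylene. The RNA came from whole seedlings 3 days old, kept in the dark on 0.5x MS medium, with 2 arrays for each of 6 groups. The groups were eto1-4 with 9393, eto1-4 with 9370, eto1-4 with 7303, eto1-4 with AVG, untreated eto1-4, and the wild type Col-0, with each compound at 10 µM. ETO1 marks some ACC synthases, the enzymes before the last step of ethylene synthesis, for breakdown, and eto1-4 is an allele of it in the Col-0 background. AVG is aminoethoxyvinylglycine, which blocks ACC synthase and other enzymes that use pyridoxal phosphate. The compounds 9393, 9370 and 7303 are known here by code alone. Every treated group carries eto1-4, and no treated wild type was among the samples. The labels do not tie the 2 arrays of a group to separate cultures.

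A value is the deposited MAS5 signal, a linear brightness that had been scaled to 1 trimmed mean on all arrays (500.04 on each). Poly-A spike RNA, a control added before labelling, gave signal on 8 arrays and was near zero on 4, namely replicate 1 of eto1-4 with 9393, of eto1-4 with 9370, of untreated eto1-4 and of Col-0. Array eto1-4 replicate 1 stood apart in seed reserve genes, of which 3 of 15 listed were named singly by the annotation. Their summed signal was 12312 there, 1898 on eto1-4 replicate 2 and 670.0 to 2871 on the other 10 arrays. On eto1-4 replicate 1, PAP85 read 6894 and AT3G01570 read 2041, against at most 264 and 270 on any other array. OLEO3 stood less apart, at 3377 beside 2659 on replicate 1 of eto1-4 with 9393. The 25S ribosomal RNA control read 494 to 12724 over the 10 arrays with the mutant and 208 and 266 in Col-0. The part of these features in the CYP718 values was not tested.

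CYP718 signal was high in untreated eto1-4 seedlings and low in Col-0 and under each of the 4 compounds. It read 268 on replicate 1 and 396 on replicate 2 of untreated eto1-4, against 13.4 and 11.5 in Col-0. The means were 332 ± 90.7 in eto1-4 and 12.5 ± 1.32 in Col-0 (SD, n = 2 each). Both eto1-4 arrays lay far above both Col-0 arrays. In whole seedlings, more cells of a kind that holds the transcript and more transcript per cell cannot be told apart.

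Values were lower with each compound. With 9393, CYP718 read 36.0 and 46.0, a mean of 41.0 ± 7.08 (SD, n = 2), which is 12.4% of the untreated eto1-4 mean. With 9370 it read 11.5 and 43.4, a mean of 27.4 ± 22.6, or 8.27% of the untreated eto1-4 mean. The replicates under 9370 were wide apart, with the lower one at the Col-0 level. With 7303 it read 102 and 56.9, a mean of 79.4 ± 31.8, or 23.9% of the untreated eto1-4 mean. With AVG it read 3.55 and 55.2, a mean of 29.4 ± 36.5, or 8.84% of the untreated eto1-4 mean. AVG replicate 1 held the lowest CYP718 signal of the 12 arrays, and the 2 AVG arrays differed more than those of any other treated group. The Col-0 mean was 3.76% of that of untreated eto1-4.

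**Figure D1:**
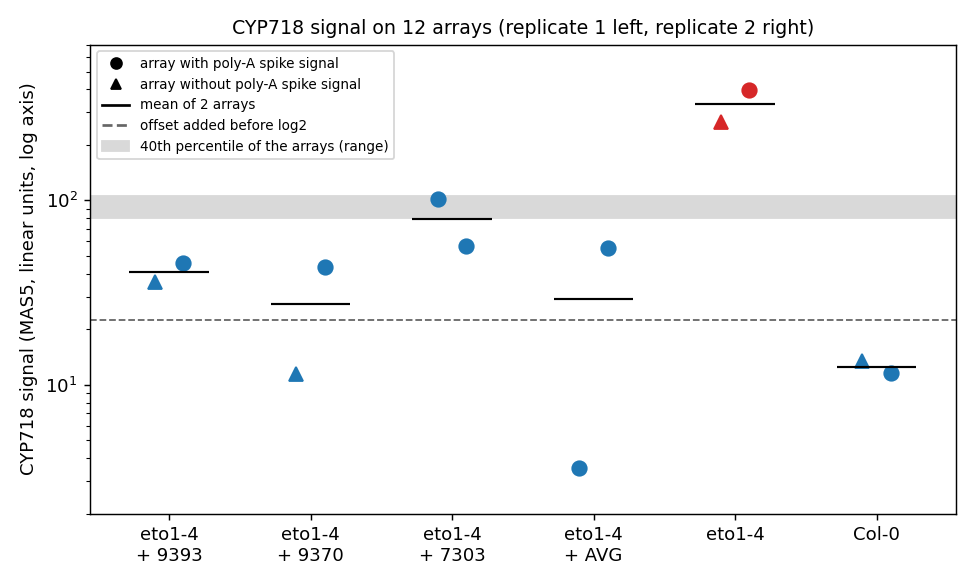
CYP718 signal on each of the 12 arrays (linear MAS5 units on a log axis) by group, with replicate 1 at the left and replicate 2 at the right of each group. Circles are arrays with poly-A spike signal, triangles arrays without it, short lines group means, the dashed line the offset of 22.4, and the grey band the range of the arrays' 40th percentiles. The untreated eto1-4 arrays, at 268 and 396, lie above the other 10, which lie between 3.55 and 102.

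The untreated eto1-4 arrays did not overlap with those of any other group. Both eto1-4 arrays above all 10 others is a pattern that 918 of 14830 tested probe sets shared, or 6.19%. The lowest eto1-4 array was at 268 and the highest array of the other groups, 7303 replicate 1, was at 102. Among the treated groups 7303 had the highest mean, and both of its arrays lay above all arrays with 9393, 9370 or AVG, though 7303 replicate 2 at 56.9 was close to AVG replicate 2 at 55.2. The ranges with 9393, 9370 and AVG overlapped one another. Against Col-0, both arrays with 9393 and both with 7303 were higher, whereas those with 9370 and with AVG straddled the Col-0 values.

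CYP718 was dim outside untreated eto1-4. Tests took in probe sets brighter than the 40th percentile of an array on 2 arrays or more, and that percentile lay between 80.6 and 105. CYP718 exceeded it on 3 arrays, both of untreated eto1-4 and 7303 replicate 1. It therefore passed through the group where it was high, and most of its other values lie in the dim range of the array.

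Differences are given on the log2 scale. To each signal an offset of 22.4 was first added (the 20th percentile over the table), which shrinks the differences of dim genes. The SE comes from a limma fit over all 12 arrays and is 0.51 for every CYP718 comparison. CYP718 was 3.32 ± 0.51 (SE) higher in eto1-4 than in Col-0, the 20th highest of 14830 differences. Relative to untreated eto1-4, the CYP718 difference was -2.46 with 9393 and -2.88 with 9370. It was -1.81 with 7303 and -2.96 with AVG. From the lowest, these stood at place 24 with 9393, 14 with 9370, 99 with 7303 and 15 with AVG. The 4 treatment comparisons share the untreated eto1-4 arrays, which also stand in the comparison with Col-0.

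As a background for these sizes, the share of tested probe sets called in either direction, at a limma adjusted p under 0.05, was 0.661% with 9393, 4.05% with 9370, 4.69% with 7303 and 5.32% with AVG, and 2.2% in eto1-4 against Col-0. With only 2 arrays a group, arrays that do not overlap are common. Higher on both eto1-4 arrays than on both Col-0 arrays were 21.5% of tested probe sets. Lower on both treated arrays than on both untreated eto1-4 arrays were 18.9% with 9393, 20.2% with 9370, 32.8% with 7303 and 30.1% with AVG. CYP718 was among them in each of the 5 comparisons.

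Set against Col-0, the CYP718 differences of the treated groups were 0.86 with 9393, 0.44 with 9370, 1.51 with 7303 and 0.36 with AVG on the log2 scale, each with an SE of 0.51. The values with 9370 and AVG rest on replicate 2 of each group: the difference was -0.0404 without 9370 replicate 2 and -0.43 without AVG replicate 2. With 9393 and with 7303 it stayed above 0 whichever array was left out, at 0.74 to 0.97 with 9393 and 1.19 to 1.83 with 7303. All 6 pairs of compounds, each at the same dose, were set side by side. CYP718 was 1.15 higher with 7303 than with AVG, 1.07 lower with 9370 than with 7303 (-1.07) and 0.65 lower with 9393 than with 7303 (-0.65). The other pairs were closer, at 0.49 for 9393 minus AVG, 0.42 for 9393 minus 9370 and 0.07 for 9370 minus AVG. Those 3 differences were smaller than their SE, and each turned its sign when 1 array was left out. The difference of 7303 from AVG was 0.36 without AVG replicate 1, and that of 9393 from 7303 was between -0.98 and -0.33 with 1 array left out.

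Untreated eto1-4 held the highest CYP718 signal both on arrays with and on arrays without poly-A spike signal. Without the spike, CYP718 read 36.0 with 9393, 11.5 with 9370, 268 in untreated eto1-4 and 13.4 in Col-0. With the spike, it read 46.0 with 9393, 43.4 with 9370, 396 in untreated eto1-4 and 11.5 in Col-0. The 8 spiked arrays hold only replicate 2 of 9393, of 9370, of untreated eto1-4 and of Col-0, so the spread within these groups is not measured there. Among these arrays the CYP718 log2 difference was 3.63 for eto1-4 against Col-0. It was -2.61 with 9393, -2.67 with 9370, -2.08 with 7303 and -3.22 with AVG against untreated eto1-4.

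**Figure D2:**
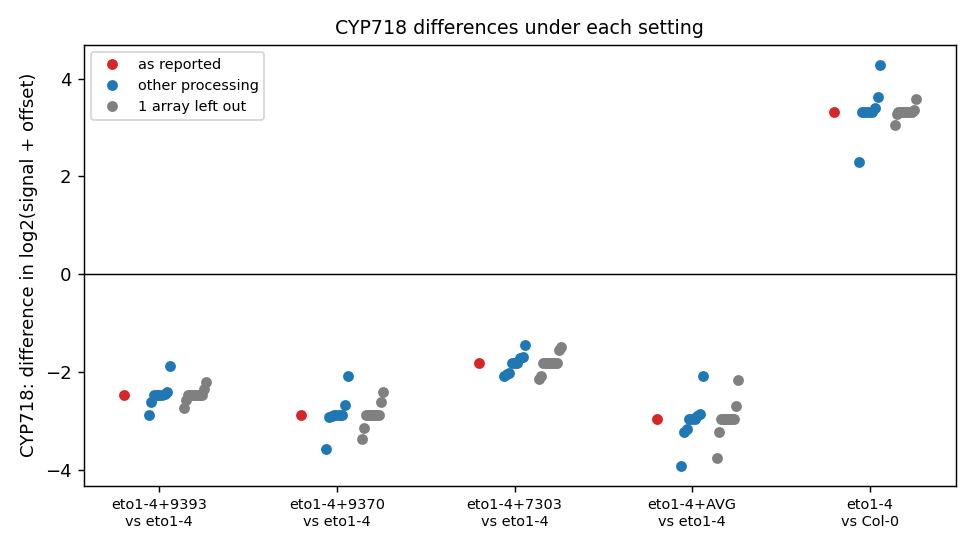
CYP718 differences in log2(signal + offset) for each of 5 comparisons as reported, under other processing, and with 1 array left out. The eto1-4 against Col-0 values lie between 2.31 and 4.29, above 0, and the values of the 4 treatments against untreated eto1-4 all lie below 0.

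The platform annotation named singly 23 further P450 genes, most of the CYP71B subfamily, and none of the other 26 genes on the list of the CYP85 clan. It listed no gene for 8730 probe sets and named singly 24 of 253 P450 genes. The 23 therefore need not stand for the family, and genes it does not name may still be on the array. Of the 23, 10 were bright enough to be tested: CYP71B5, CYP71B6, CYP71B23, CYP71B26, CYP71B28, CYP71B29, CYP71B34, CYP71B35, CYP71B37 and CYP84A4. In limma, 0 of the 10 were called in each of the 5 comparisons. Over all tested probe sets the share called was 0.661% with 9393, 4.05% with 9370, 4.69% with 7303, 5.32% with AVG and 2.2% in eto1-4 against Col-0, so that a count of 0 among 10 is near the background and no result about these genes. At an unadjusted p under 0.05 the count was 0 with 9393, 2 with 9370, 1 with 7303 and 2 with AVG, and 1 in eto1-4 against Col-0. Over all tested probe sets that looser threshold took 15.5% with 9393, 21.6% with 9370, 23.7% with 7303, 24.0% with AVG and 16.8% in eto1-4 against Col-0.

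The median log2 difference of the 10 P450 genes in eto1-4 against Col-0 was -0.25, beside -0.03 over all tested probe sets. They ran between -1.11 for CYP71B35 and 0.16 for CYP71B28. Against untreated eto1-4 the median of the 10 was 0.05 with 9393, 0.04 with 9370, 0.25 with 7303 and 0.02 with AVG, and over all tested probe sets it was -0.01, 0.01, -0.05 and -0.04. The widest differences under the compounds were 0.59 for CYP71B35 with 9393, 0.63 for CYP71B35 with 9370, 0.59 for CYP71B26 with 7303 and -1.04 for CYP71B37 with AVG. CYP718 lay outside the range of the 10 in each comparison. That position follows largely from the choice of CYP718, which was selected for its large difference between eto1-4 and Col-0. The comparisons also share the untreated eto1-4 arrays, and the P450 genes too dim to be tested are not in this range.

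CYP71B35 went the other way from CYP718 in eto1-4 against Col-0 and with 9393, 9370 and 7303. These comparisons share the untreated eto1-4 arrays. None of the CYP71B35 differences with a compound passed (limma adjusted p = 0.326 with 9393, 0.207 with 9370, 0.241 with 7303 and 0.964 with AVG). With AVG its difference from untreated eto1-4 was 0.02 ± 0.27 (SE), with arrays on both sides of the untreated ones. CYP71B35 read 71.9 and 66.8 in untreated eto1-4, against 182 and 169 in Col-0. Its difference of -1.11 ± 0.27 (SE) did not pass (limma adjusted p = 0.0657), though it passed with the poly-A spike as a block (limma adjusted p = 0.042). With that block, 942 of 14830 tested probe sets were called in this comparison. With the compounds CYP71B35 read 106 and 126 with 9393, 117 and 122 with 9370, 138 and 89.7 with 7303 and 95.0 and 51.8 with AVG. CYP71B23 differed by 0.68 ± 0.22 with AVG (limma adjusted p = 0.0979), and CYP71B29 by 0.57 ± 0.17 with 7303 (limma adjusted p = 0.0891). CYP71B6, known from work on the breakdown of indole-3-acetonitrile, stayed between 640.4 and 1156 on the 12 arrays. CYP84A4, known from the synthesis of alpha-pyrones, lay between 103 and 449.

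The other 13 P450 genes were too dim to be tested. Among them CYP79A2, which starts the path to benzylglucosinolate, lay between 1.44 and 6.14. CYP78A9, known for its part in fruit and seed size, lay between 4.73 and 44.7 and read 34.5 and 18.6 with 9393, 6.87 and 18.9 with 9370, 28.9 and 44.7 with 7303 and 8.21 and 4.73 with AVG, against 8.26 and 6.98 in untreated eto1-4. CYP71B36 read 26.0 and 19.4 in untreated eto1-4, against 2.86 and 3.91 in Col-0, and 1.36 to 11.9 with the compounds. Its arrays in untreated eto1-4 thus lay above the other 10, as those of CYP718 did, at a far dimmer level. How many probe sets too dim to be tested share that order was not counted, so it is no result about CYP71B36. Apart from the 26.0 on eto1-4 replicate 1, its values all lay under the offset of 22.4. When all probe sets were tested whatever their brightness, CYP71B36 was called with AVG (-0.90 ± 0.20, limma adjusted p = 0.0476). It was 1 of 537 probe sets called there. CYP71B36 was singled out after its values were seen.

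**Figure D3:**
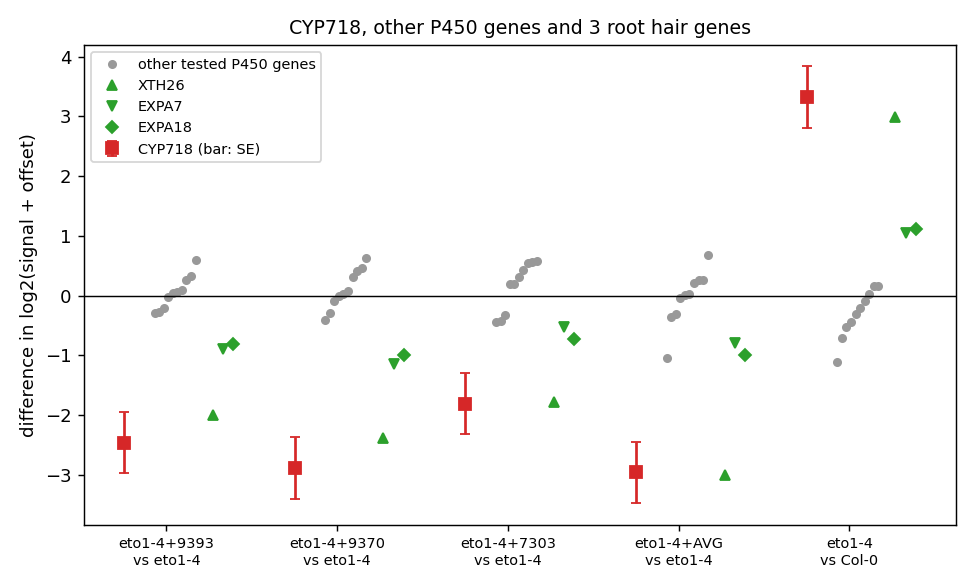
Differences in log2(signal + offset) in the 5 comparisons for CYP718 (squares, bars are the SE of the limma fit), the 10 other tested P450 genes (grey points) and the root hair genes XTH26, EXPA7 and EXPA18. CYP718 lies outside the range of the other P450 genes in each comparison, and the 3 root hair genes lie on the same side of 0 as CYP718.

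The genes whose signal followed CYP718 most closely were ranked by Pearson r of log2(signal + offset) over the 12 arrays, among 7994 other tested probe sets that name 1 gene. The first 8 were AT1G26650 (r = 0.95), XTH26 (0.95), AT1G17430 (0.95), AT2G18690 (0.93), AT3G55720 (0.92), AT2G47550 (0.92), AT4G30500 (0.92) and AT1G33790 (0.91). These values describe arrays that share 1 pair of high arrays, untreated eto1-4, and they carry no test. Likeness says nothing about size: AT1G26650 read 949.8 and 968 in untreated eto1-4 against 644 and 566 in Col-0, a difference of 0.65 on the log2 scale. AT1G33790 read 2025 and 1622 in untreated eto1-4 against 358 and 301 in Col-0, a difference of 2.39.

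XTH26, a xyloglucan endotransglucosylase/hydrolase that acts on the xyloglucan of cell walls, had, of these 8 genes, the difference between eto1-4 and Col-0 nearest in size to that of CYP718. It read 183 and 392 in untreated eto1-4, against 3.75 and 28.6 in Col-0. With the compounds XTH26 read 52.0 and 49.6 with 9393, 27.8 and 40.2 with 9370, 89.8 and 42.3 with 7303, and 1.86 and 32.7 with AVG. As for CYP718, the 7303 array of replicate 1 was the highest of the treated arrays and the AVG array of replicate 1 the lowest of the 12. The log2 differences of XTH26 were 3.00 in eto1-4 against Col-0, and -1.99 with 9393, -2.38 with 9370, -1.77 with 7303 and -2.99 with AVG against untreated eto1-4.

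**Figure D4:**
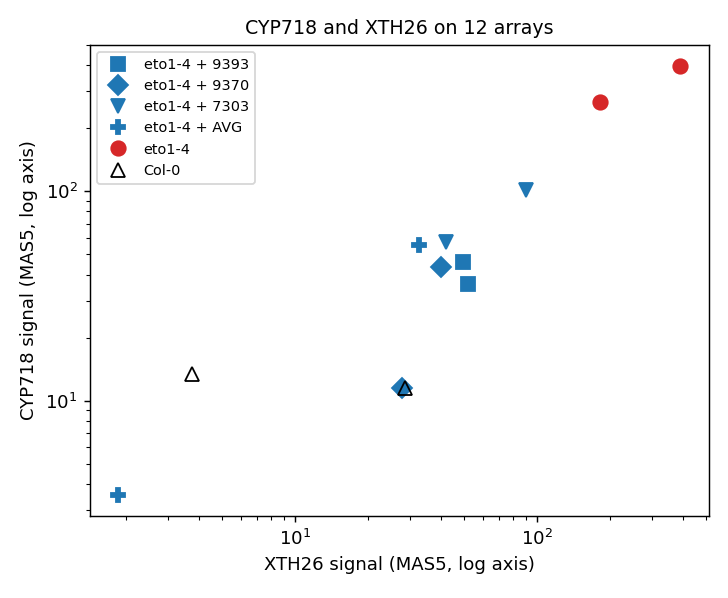
CYP718 signal against XTH26 signal on the 12 arrays (MAS5 units, both axes log), by group. The untreated eto1-4 arrays lie at the upper right, and AVG replicate 1, at 3.55 for CYP718 and 1.86 for XTH26, at the lower left.

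Without the 2 untreated eto1-4 arrays, the likeness was looser. Over the other 10 arrays r with CYP718 was 0.84 for XTH26, 0.89 for AT2G18690, 0.84 for AT1G26650 and 0.83 for AT1G17430. It was 0.70 for AT3G55720, 0.68 for AT2G47550, 0.74 for AT4G30500 and 0.72 for AT1G33790. Of the 8 genes, 2 stayed among the first 8 over these 10 arrays, AT2G18690 at place 1 and XTH26 at place 7. AT2G18690 read 1418 and 1692 in untreated eto1-4, against 495 and 415 in Col-0, and 446 to 1131 with the compounds.

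The most opposite genes were AT2G16750 (r = -0.96), AT2G37540 (-0.94) and AT3G56820 (-0.91). AT2G16750 read 93.6 and 87.7 in untreated eto1-4, against 173 and 199 in Col-0, and 138 to 202 with the compounds. AT2G37540 read 116 and 99.5 in untreated eto1-4, against 219 and 182 in Col-0. Their swings were smaller than that of CYP718, with differences of -0.88 for AT2G16750 and -0.78 for AT2G37540 in eto1-4 against Col-0.

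**Figure D5:**
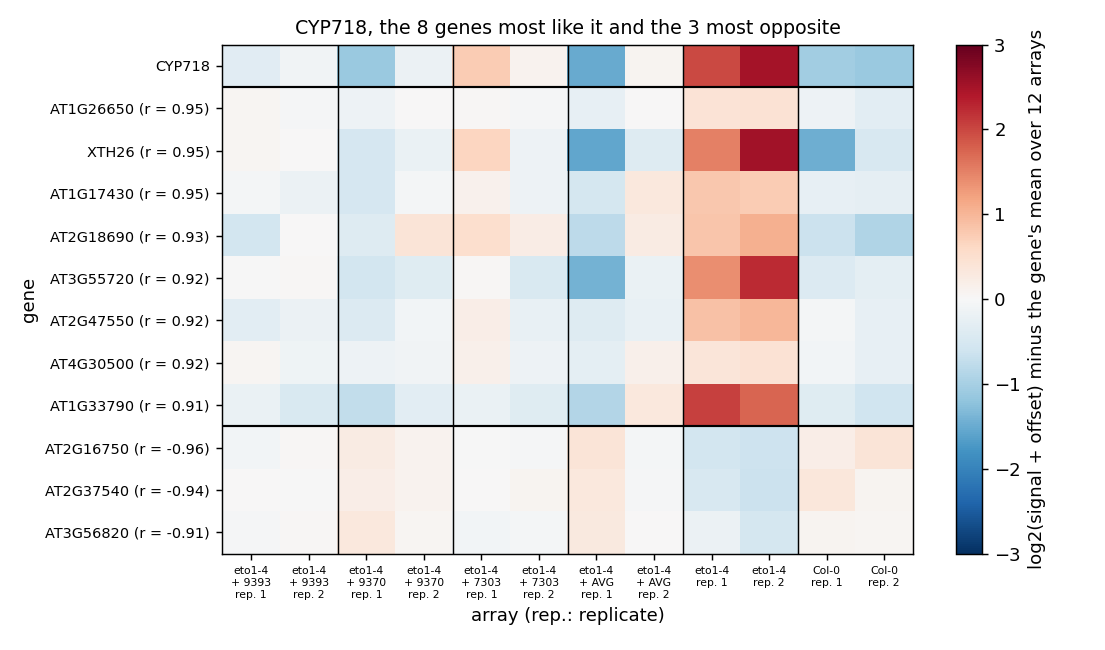
Heat map of log2(signal + offset) minus each gene's mean over 12 arrays (colour bar) for CYP718, the 8 genes most like it and the 3 most opposite, with arrays in columns. Within each row the untreated eto1-4 columns are the reddest for CYP718 and the 8 genes and the bluest for the 3 opposite genes. The colours are pale in rows with small differences, such as AT4G30500 and AT3G56820.

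XTH26 is also on a list of root hair genes, of which 3 of 11 were named singly by the annotation. These are XTH26 and the expansin genes EXPA7 and EXPA18, whose products loosen the walls of root hair cells. Their summed signal was 673 and 1375 in untreated eto1-4, against 248 and 408 in Col-0. With the compounds the sum was 361 and 487 with 9393, 303 and 399 with 9370, 625 and 389.9 with 7303, and 300.1 and 440.3 with AVG. XTH26 was as low as 1.86 with AVG and 3.75 in Col-0, under the offset of 22.4. The untreated eto1-4 arrays had the 2 highest sums, though 7303 replicate 1 came close to eto1-4 replicate 1. That order rests on XTH26, which is also among the 8 genes most like CYP718. EXPA7 read 218 on 7303 replicate 1 and 185 on eto1-4 replicate 1. EXPA18 read 318 on 7303 replicate 1 and 306 on eto1-4 replicate 1. EXPA7 differed by 1.05 ± 0.38 and EXPA18 by 1.11 ± 0.36 in eto1-4 against Col-0, and neither passed in any of the 5 comparisons (limma adjusted p between 0.118 and 0.410). Over the 12 arrays r with CYP718 was 0.84 for EXPA7 and 0.85 for EXPA18, and over the 10 arrays other than untreated eto1-4 it was 0.79 for EXPA7 and 0.65 for EXPA18. The part of these cells in the CYP718 signal was not tested.

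Of the seed reserve genes, PAP85, a seed storage protein gene, read 6894 and 42.6 in untreated eto1-4. CYP718 read 268 on the first of these arrays and 396 on the second. The CYP718 difference between eto1-4 and Col-0 was 3.59 without eto1-4 replicate 1 and 3.06 without eto1-4 replicate 2. The part of the seed reserve signal in the CYP718 values was not tested.

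The locus next to CYP718 in the gene table of assembly TAIR10.1, AT2G42860, was dim on all 12 arrays and was not tested. It read 19.2 and 27.96 in untreated eto1-4, against 22.6 and 29.9 in Col-0, and 4.64 to 48.5 with the compounds. The untreated eto1-4 arrays lay within the range of the others, whereas those of CYP718 stood clear of all 10. On the other side lies PDF1, which was not analysed here.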

How the data were processed

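Transcripts of whole seedlings were measured on 12 Affymetrix arrays in 6 groups of 2, grouped by sample title. The deposited values are signal intensities, 1 for each probe set on each array, made by the authors with MAS5 per the submitters' processing notes, and no detection calls were used. The tests leave out 64 control probe sets of the 22810. Names came from the platform annotation and were updated through gene identifiers to those of assembly TAIR10.1, which gave 13436 probe sets 1 gene. The annotation listed no gene for 8730 probe sets. Of the 253 P450 genes found in that table by name or description, 24 were named singly by the annotation, and of 29 names on the CYP85 clan list 27 matched a locus.

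Intensities were taken to log2 after adding 22.4. All arrays were fitted together, with a mean for each of 6 groups, in limma 3.58.1 (R 4.3.3, eBayes with trend) on 14830 probe sets, with Benjamini-Hochberg adjustment within each comparison and calls at 0.05. The steps were tested on simulated data. P-values rest on the spread between these samples alone, and that spread may be technical; the number of arrays limits the precision. CYP718, the lists of genes, the naming rule (CYP718, the 8 most like it, the 3 most opposite, measured CYP85 clan members and P450 genes called) and the alternatives were chosen with earlier results of these data known. The planned scan of promoter motifs was not run, since no sequence was used here. No array pair held identical values.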

Additional observations from a re-analysis of the deposited data

How the results depend on the processing

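In the 5 comparisons of eto1-4 with Col-0 and of each compound with untreated eto1-4, the CYP718 differences kept their sign under every alternative run. An offset 5 times smaller moved them to 4.29 in eto1-4 against Col-0, -3.58 with 9370 and -3.92 with AVG, and one 3 times larger to 2.31 in eto1-4 against Col-0, -1.87 with 9393, -2.08 with 9370 and -2.08 with AVG. Leaving out 1 array gave 3.06 to 3.59 in eto1-4 against Col-0, -2.73 to -2.20 with 9393, -3.36 to -2.41 with 9370, -2.14 to -1.49 with 7303 and -3.75 to -2.17 with AVG, where -2.17 is without AVG replicate 1 and -3.75 without AVG replicate 2. For the other 10 comparisons the same alternatives were run after seeing the data, and the sign turned in 5 of them. Leaving out 1 array gave -0.0404 to 0.92 for 9370 against Col-0, -0.43 to 1.15 for AVG against Col-0, -0.30 to 1.29 for 9393 against AVG, -0.72 to 0.86 for 9370 against AVG and -0.0582 to 0.90 for 9393 against 9370. The difference of 9370 from AVG was also -0.0225 after quantile normalization and -0.0471 after median centring. The other P450 genes called numbered 0 under the settings run, with the exception of 1 with AVG and no filter (CYP71B36) and 1 in eto1-4 against Col-0 with the poly-A spike as a block (CYP71B35). All probe sets called numbered 537 with AVG and no filter. They numbered 942 of 14830 in eto1-4 against Col-0 with the spike as a block. A count of 1 P450 gene is therefore no result about these genes.

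The number of all probe sets called moved more. With no filter it was 191 in eto1-4 against Col-0, 40 with 9393, 374 with 9370 and 427 with 7303. With the poly-A spike as a block it was 942 in eto1-4 against Col-0, 578 with 9393 and 1591 with 9370, and on the spiked arrays alone 202 in eto1-4 against Col-0 and 158 with 9393. Fitting the 2 compared groups alone gave 199 in eto1-4 against Col-0, 1 with 9393, 6 with 9370 and 353 with AVG. Leaving out 1 array gave 2 to 416 in eto1-4 against Col-0, 0 to 161 with 9393, 1 to 682 with 9370, 2 to 1010 with 7303 and 4 to 1123 with AVG. A fit without an array of a compared group leaves that group 1 array, so such counts are unreplicated on that side. The cause of these moves was not tested.

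Replicate numbers were shared between groups, but same-numbered arrays deviated together (r over 0.1) in 5 of 15 pairs of groups, so the number does not pair all 6 groups. The 5 pairs lie among 9393, 9370, untreated eto1-4 and Col-0, in which replicate 1 lacks and replicate 2 has the poly-A spike signal, and for these the spike as a block, given above, takes the place of the number. With the replicate block CYP718 differences were as reported, at 3.32 ± 0.47 (SE) in eto1-4 against Col-0, and the count with 9393 was 164 in place of 98. Of the 8 genes most like CYP718, 3 stayed among the first 8 by Spearman rho, 2 by the 6 group means and 2 over the 10 arrays other than untreated eto1-4, a choice made after seeing the data. Leaving out 1 array kept 4 to 8, with 4 without Col-0 replicate 2 or eto1-4 replicate 2 and 5 without AVG replicate 1. XTH26 stayed in all 17 planned settings.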
